A study of Bos taurus with 2 samples.

Results

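The genes of oxidative phosphorylation were followed across the cells of the bovine mammary gland. They comprised 109 of the 27270 genes counted: the 13 protein genes of the mitochondrial genome and 96 nuclear genes whose symbols name a subunit, regulator or assembly factor of complexes I to IV or of ATP synthase. Of the nuclear genes, 84 encode subunits or regulators and 12 encode assembly factors of complexes I and II. COX6C and COX7C were not analysed here. Mammary gland of Holstein dairy cattle was sampled in lactating adult and newborn animals, with 1 library for each stage. Fat was trimmed off, and after an EDTA step the tissue was broken up by enzymes (collagenase, hyaluronidase and DNase) and passed through strainers. Dead cells were depleted where viability was low, and libraries were made with the 10x Genomics 3' kit of version 3. The labels do not say how many animals gave each library. A single library per stage allows neither a replicate check nor a test of the stage, so the intervals given are 95% intervals that cover counting error only.

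Oxidative phosphorylation passes electrons from NADH (complex I) and succinate (complex II) over complex III to oxygen at complex IV, and the proton gradient so built drives ATP synthase. All of these complexes except complex II combine subunits made inside the mitochondrion, from its own genome, with subunits encoded in the nucleus and imported. Several nuclear subunits of complex IV exist in alternative forms that are bound to tissues such as muscle, lung or testis. In the lactating gland the secretory epithelium makes milk protein, fat and lactose, processes that use ATP.

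The adult library held 15897 barcodes with a median of 2723 UMIs, and the newborn library 13772 barcodes with a median of 4581 UMIs. After limits on genes, mitochondrial share and doublets, 12758 adult and 12110 newborn cells were left, of which 10375 and 10992 carried the markers of exactly 1 cell type. The design text speaks of 24472 high-quality cells. The libraries shared 57 barcodes. Newborn cells assigned to the luminal or the milk-secreting epithelial type numbered 0, so these could be described in the adult only. Cells that met several gates, 73 in the newborn, were set aside, and epithelial gates among them were not counted. Basal epithelium was not gated at either stage. Types are named "like" because they rest on marker genes: 10 types were described in the adult and 4 in the newborn, each with at least 50 cells except adult plasma cell-like cells (48). RNA of milk proteins made up 76.6% of the UMIs of milk-secreting epithelium-like cells, and between 0.806% and 7.36% in the other adult types. If all of it had been carried over from milk-secreting cells, RNA of those cells would account for at most 1.42% of the mitochondrial and 1.30% of the nuclear level below in every other adult type but 1. The exception was neutrophil-like cells, with 9.81% and 8.04%.

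Summed over all cells of a type, mast cell-like cells had the highest share of mitochondrially encoded RNA at both stages. It was 8.19% of UMIs in 408 adult and 7.14% in 685 newborn mast cell-like cells. In the adult, T or NK cell-like cells (4.90%), luminal epithelium-like cells (4.86%) and fibroblast-like cells (4.73%) came next and lay close together. Macrophage or monocyte-like (3.55%), B cell-like (3.05%), endothelium-like (2.81%) and plasma cell-like cells (2.73%) followed. Milk-secreting epithelium-like (2.20%) and neutrophil-like cells (2.16%) had the lowest shares, and their intervals overlapped. In the newborn, the order was mast cell-like, T or NK cell-like (3.16%), endothelium-like (2.34%) and fibroblast-like cells (1.26%). Among adult cells of like depth the first place depended on the bin. At 2000 to 4000 UMIs luminal epithelium-like cells had 9.53% and mast cell-like cells 7.83%. At 1000 to 2000 UMIs they had 9.997% and 10.01%, and at 4000 to 8000 UMIs 6.44% and 6.70%. Newborn mast cell-like cells stayed first in each bin that held them. The limit of 20% mitochondrial UMIs per cell, which itself uses these genes, removed 62 luminal epithelium-like cells, 29 adult T or NK cell-like cells and at most 9 cells of any other type.

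The nuclear genes gave a different order. Their summed level, in UMIs per 1000000 UMIs of the same cells (CPM), was highest in the adult in endothelium-like cells at 15795 CPM (15729 to 15861). Plasma cell-like cells had 14555 CPM, and T or NK cell-like (13499 CPM) and B cell-like cells (13480.1 CPM) overlapped within their intervals. Luminal epithelium-like cells had 12515 CPM, macrophage or monocyte-like cells 11492 CPM and fibroblast-like cells 11164 CPM, and the intervals of the last 2 overlapped. Mast cell-like cells, first for mitochondrial RNA, had 10612 CPM. Neutrophil-like cells (4897 CPM) and milk-secreting epithelium-like cells (4096 CPM) were lowest. In the newborn, T or NK cell-like cells had 14214 CPM, endothelium-like cells 11065 CPM, mast cell-like cells 9426 CPM and fibroblast-like cells 8588 CPM.

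**Figure D1:**
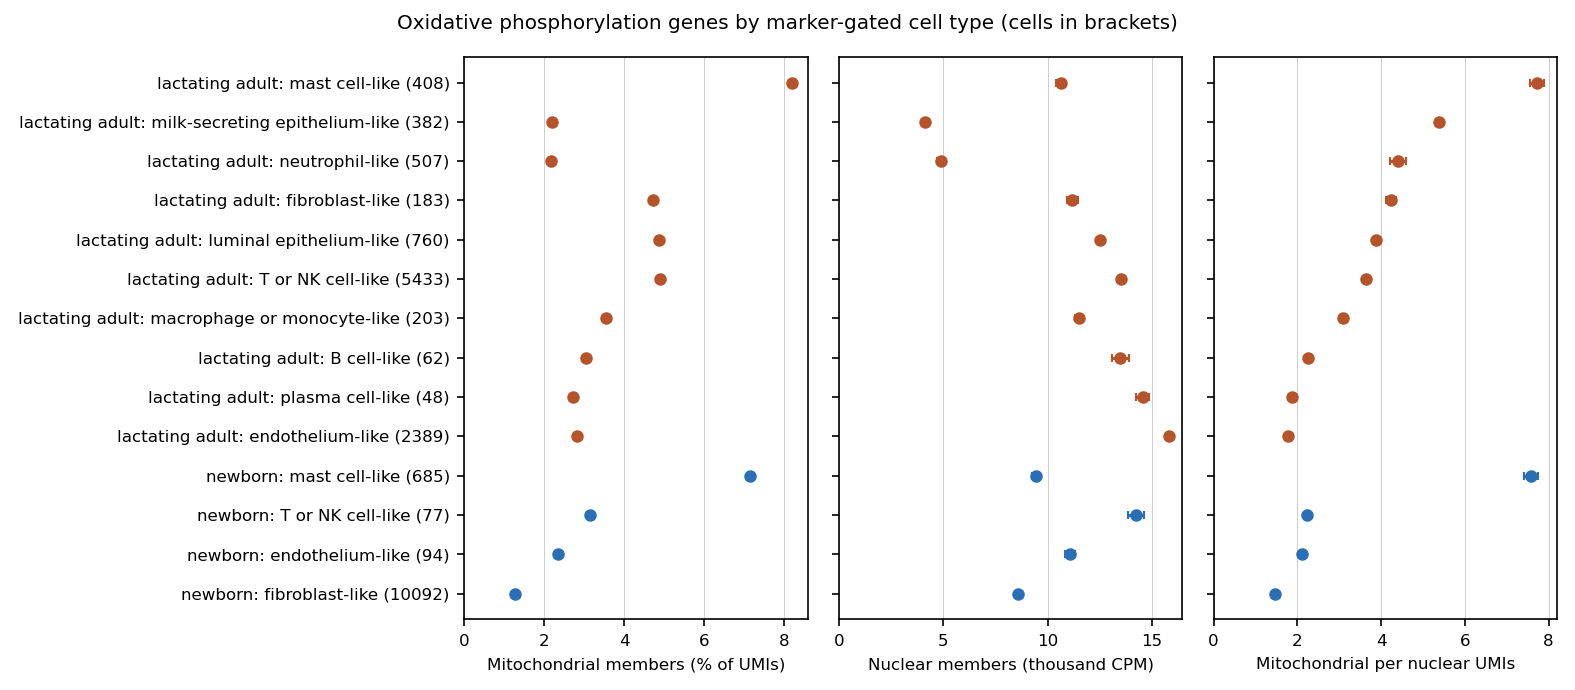
Summed levels of the oxidative phosphorylation genes in each marker-gated cell type, adult types above newborn types: the mitochondrially encoded share of UMIs (%), the nuclear level (in units of 1000 CPM) and mitochondrial per nuclear UMIs. Points are sums over the cells of 1 library, of all depths, and bars are 95% counting intervals. Mast cell-like cells stand highest in the first and last panels at both stages, with 7.72 and 7.58 mitochondrial UMIs per nuclear UMI. In bins of like depth the order of the first panel did not always hold. In the last panel's measure, adult mast cell-like cells were first in none of the bins that held them.

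Each nuclear UMI was accompanied by 7.72 mitochondrial UMIs in adult and by 7.58 in newborn mast cell-like cells. In the adult the ratio was 5.37 in milk-secreting epithelium-like cells, 4.40 in neutrophil-like, 4.24 in fibroblast-like and 3.89 in luminal epithelium-like cells. It was 3.63 in T or NK cell-like, 3.09 in macrophage or monocyte-like, 2.26 in B cell-like, 1.88 in plasma cell-like and 1.78 in endothelium-like cells. In some types the ratio differed widely with depth. In adult T or NK cell-like cells it was 13.6 among cells of 500 to 1000 UMIs and 2.12 among cells of 8000 to 16000 UMIs. Adult endothelium-like cells had 4.16 and 1.68 in the same bins, and newborn fibroblast-like cells 12.7 and 1.19. Other bins ran the other way: luminal and adult neutrophil-like cells had a higher ratio at 1000 to 2000 than at 500 to 1000 UMIs, and newborn T or NK cell-like cells had 2.35 at 2000 to 4000 and 2.57 at 4000 to 8000 UMIs. What sets the link with depth was not tested.

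The nuclear genes were split among the complexes in similar parts in most types. Complex I, which has 37 nuclear subunits here, took between 24.7% and 35.7% of the UMIs of nuclear subunits and regulators, assembly factors left out, in the adult types. Complex IV took between 22.4% and 32.1%, highest for T or NK cell-like cells, and ATP synthase between 29.5% and 34.6%. Complex II, with 4 subunits, took 1.74% in adult T or NK cell-like cells, and between 2.26% and 4.78% in the other adult types. Newborn T or NK cell-like cells likewise had 1.75%, against 3.21% to 3.80% in the other newborn types.

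The comparison between stages was made in the 4 types with at least 50 cells in both libraries. Ratios are adult over newborn. A gene entered if its higher level would give at least 20 UMIs at the total of the smaller group, and 2-fold was taken as the size that counts. Fibroblast-like cells showed the largest ratio of mitochondrial RNA. The 13 genes summed to 47324 CPM in 183 adult and to 12622 CPM in 10092 newborn fibroblast-like cells, a ratio of 3.75 (3.71 to 3.79). The share per cell had a median of 5.27% in the adult (quartiles 3.39% and 7.88%) and of 1.18% in the newborn (quartiles 0.841% and 1.76%), so that the ranges between the quartiles did not overlap. All 12 mitochondrial genes with enough UMIs passed 2-fold, higher in the adult, against a background of 36.5% of genes, from ATP8 (2.27-fold) and ND2 (2.57-fold), subunits of ATP synthase and complex I, to COX2 (4.81-fold) and ND4 (4.84-fold), subunits of complexes IV and I. ND6 had 17 adult UMIs and did not enter. That background covers 4689 genes, of which 11.1% passed 2-fold in the other direction, with a median log2 ratio of 0.68. When levels were scaled by that median, 8 of the 12 mitochondrial genes were past 2-fold.

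The nuclear genes of fibroblast-like cells did not follow. They summed to 11164 CPM in the adult and 8588 CPM in the newborn, a ratio of 1.30 (1.27 to 1.33), which turned to a log2 ratio of -0.31 when scaled by the median of all genes. Among 79 nuclear members with enough UMIs, 14 were at least 2-fold higher and 0 lower, and the median log2 ratio was 0.54, below that of all genes. The share of 14 in 79 lay under the background of 36.5%. With median scaling the split was 2 higher and 5 lower. Complex I and complex II leaned higher than the rest, with median log2 ratios of 0.73 and 0.88, against 0.50 for complex III, 0.48 for complex IV and 0.33 for ATP synthase, and scaling by the median of all genes turned the last 3 negative. Mitochondrial per nuclear UMIs were thus 4.24 in the adult and 1.47 in the newborn, 2.88 times as many. This ratio does not depend on the scaling.

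Depth and other cells moved with this difference. Adult fibroblast-like cells had a median of 2389 UMIs, against 4707 in the newborn. In cells of like depth the adult held 3.26 times as many mitochondrial per nuclear UMIs at 2000 to 4000 UMIs (51 adult and 2201 newborn cells), 2.32 times at 4000 to 8000 and 2.11 times at 1000 to 2000 UMIs. Among the shallowest cells, of 500 to 1000 UMIs, the direction turned, with a ratio of 0.843 on 23 adult and 711 newborn cells. Newborn fibroblast-like cells fell into 13 clusters that ranged from 0.896 to 12.4 mitochondrial per nuclear UMIs, the highest being a cluster of 306 cells with a median of 804 UMIs. The T or NK cell list, of which NCR1 was at 0 in the adult and CD3G in the newborn, summed to 109 CPM in adult and 1.57 CPM in newborn fibroblast-like cells, and its part in the result was not tested.

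**Figure D2:**
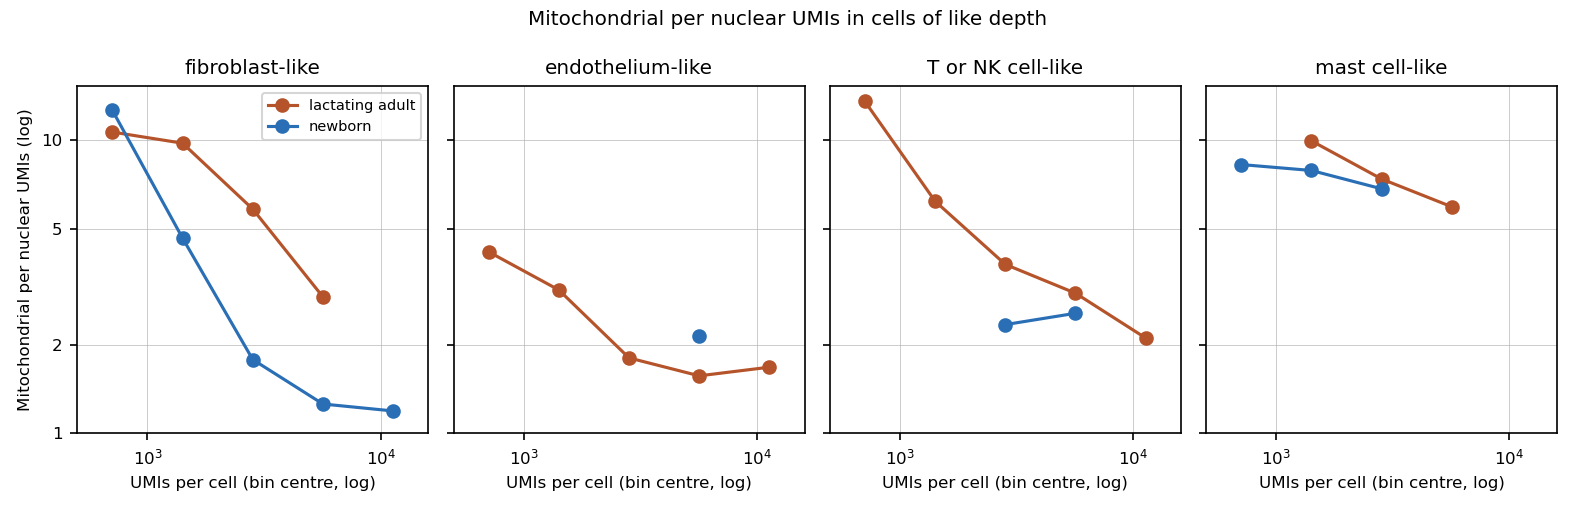
Mitochondrial per nuclear UMIs (log axis) against UMIs per cell (log axis, centre of each bin) for the 4 types found at both stages; each point is the sum over at least 20 cells of 1 library. Adult fibroblast-like cells lie above newborn ones in 3 of 4 bins, and the only endothelium-like bin with newborn cells has the adult lower.

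Endothelium-like cells, the lining of vessels, differed the other way round: their nuclear genes were further from equality than their mitochondrial genes. The nuclear genes summed to 15795 CPM in 2389 adult and 11065 CPM in 94 newborn cells, a ratio of 1.43 (1.39 to 1.46). The mitochondrial genes had 28098 CPM in the adult and 23354 CPM in the newborn, a ratio of 1.20, and 0 of 12 with enough UMIs were past 2-fold, against a background of 9.08% higher and 9.13% lower. COX2 was the most different of them, at 1.81-fold. Mitochondrial per nuclear UMIs were therefore 1.78 in the adult and 2.11 in the newborn, a ratio of 0.843. Of 79 nuclear members, 72 lay above and 7 below equality, 11 were at least 2-fold higher and 0 lower. That background covers 4491 genes, and the median log2 ratio was 0.54 for the members and 0.07 for all genes. With median scaling 6 were past 2-fold. All 5 groups of nuclear subunits had medians between 0.41 (complex II) and 0.58 (complex I), and no scaling turned one of them.

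The vessel types differed in number between the stages. Cells with lymphatic and without blood vascular markers were 1992 of the adult and 57 of the newborn endothelium-like cells, and cells with only blood vascular markers were 110 and 23. In the lymphatic cells alone, nuclear genes had 16023 CPM in the adult and 11878 CPM in the newborn, and mitochondrial per nuclear UMIs were 1.66 in the adult and 2.12 in the newborn. In mitochondrial per nuclear UMIs the blood vascular cells went the opposite way, with 3.31 in the adult and 1.58 in the newborn, on 23 newborn cells of a median of 2341 UMIs against 4939 in the adult. The fibroblast list summed to 37.2 CPM in adult and 992 CPM in newborn endothelium-like cells, and its part in the stage ratios was not tested.

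T or NK cell-like cells had a higher mitochondrial level in the adult, and a nuclear level that was close at both stages. The mitochondrial genes summed to 48983 CPM in 5433 adult and 31579 CPM in 77 newborn cells, 1.55-fold (1.52 to 1.58), and 12 of 13 were higher. Cytochrome b, the core of complex III encoded by CYTB, was the 1 past 2-fold (background 5.84% of genes), with 4784 CPM in the adult and 2147 CPM in the newborn (2.23-fold, 2.08 to 2.39). With median scaling 3 of the 13 were past 2-fold. ND3 was next at 1.99-fold, and ATP8 was the only one below equality at 0.892 (0.585 to 1.43). The nuclear genes had 13499 CPM in the adult and 14214 CPM in the newborn, a ratio of 0.950 (0.925 to 0.975) that moved to the other side of equality, a log2 ratio of 0.06, with median scaling. Of 72 nuclear members, 0 were at least 2-fold higher and 2 lower, against a background of 5.84% and 7.66% of 2364 genes. Mitochondrial per nuclear UMIs were 3.63 in the adult and 2.22 in the newborn. At 2000 to 4000 UMIs the adult had 1.61 times as many as the newborn (25 newborn cells), and at 4000 to 8000 UMIs 1.17 times (39 newborn cells). The summed nuclear level had ratios of 1.005 and 1.07 in the same bins.

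Mast cell-like cells had stage ratios near 1 in sum. Their mitochondrial genes had 81949 CPM in the adult and 71439 CPM in the newborn (1.15-fold, 1.14 to 1.16), and their nuclear genes 10612 CPM in the adult and 9426 CPM in the newborn (1.13-fold, 1.09 to 1.16). The ratio of both was 1.02, and it moved to a log2 ratio of -0.18 when cells over 10% mitochondrial UMIs were left out. Adult cells were deeper, with a median of 2132 UMIs against 1195. In cells of like depth the ratio of both was 1.26 at 1000 to 2000 UMIs (159 adult and 414 newborn cells). At 2000 to 4000 UMIs it was 1.08 (203 adult and 58 newborn cells). Of 78 nuclear members, 7 were at least 2-fold higher and 1 lower, against 18.4% and 11.9% of 4299 genes. Of the 13 mitochondrial genes, 3 were past 2-fold: ND6 (2.80-fold), ND4L (2.09-fold) and ATP8 (2.07-fold). With median scaling 1 was. Their median log2 ratio was 0.73 and 12 of 13 lay above equality, of which COX1 and COX2 turned with median scaling. ND4L overlaps ND4, ATP8 overlaps ATP6 and ND6 lies on the other strand, and how reads were assigned between them was not tested. COX3 went the other way, with 18843 CPM in the adult and 25193 CPM in the newborn, a ratio of 0.748 (0.734 to 0.763).

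**Figure D3:**
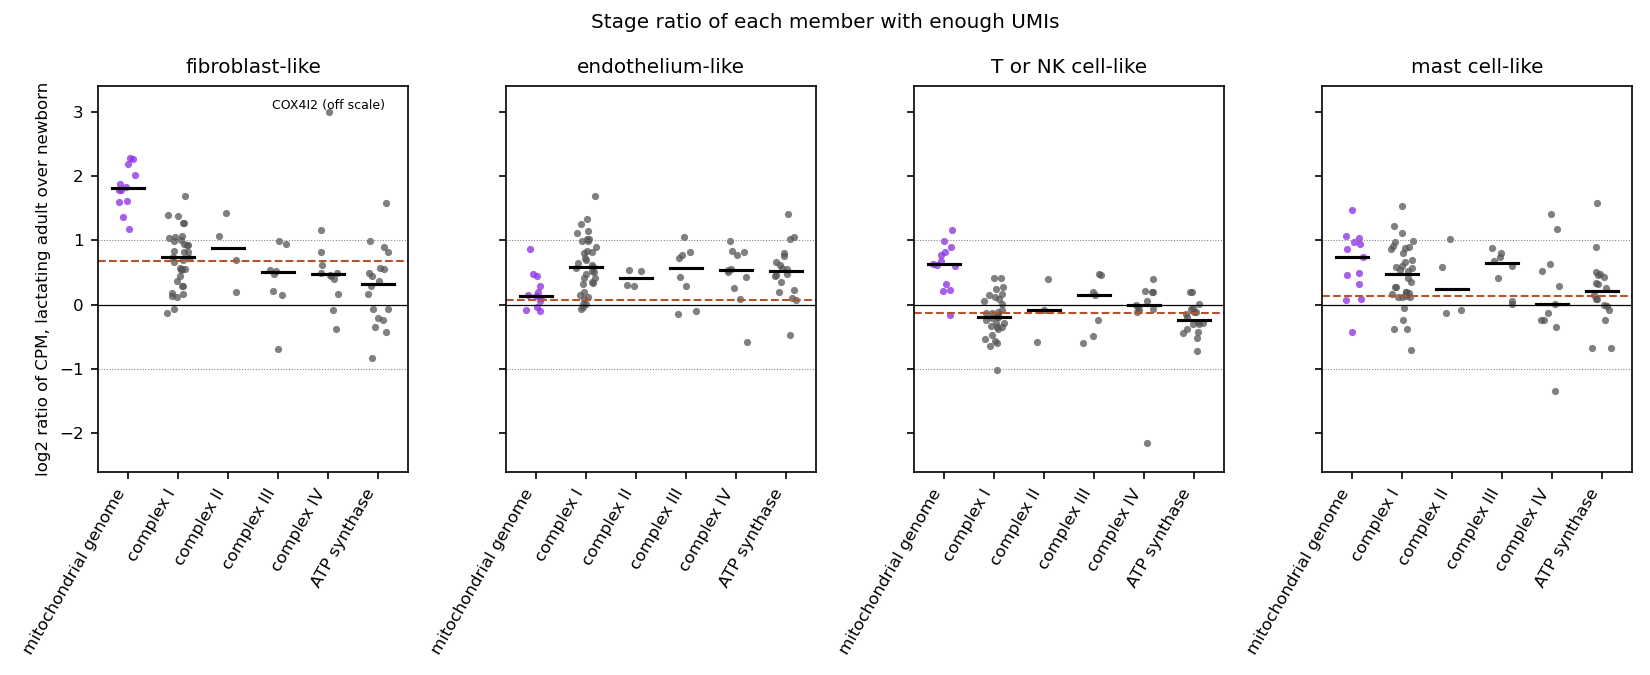
Log2 ratio of CPM, lactating adult over newborn, for each subunit or regulator gene with enough UMIs in the 4 cell types found at both stages. Bars are group medians, the dashed line is the median of all genes and dotted lines mark 2-fold; the mitochondrial genome stands above the nuclear complexes in fibroblast-like, T or NK cell-like and mast cell-like cells and not in endothelium-like cells.

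The make-up of the mitochondrial RNA was alike in most types. COX3, a core subunit of complex IV, gave the most UMIs in every type, between 19.0% and 26.3% of the mitochondrial UMIs in 13 of the 14 sets of cells. The exception was newborn mast cell-like cells, where it gave 35.3%, against 23.0% in adult mast cell-like cells. ND2, a membrane subunit of complex I, gave 3.77% in adult milk-secreting epithelium-like cells and between 6.50% and 10.7% in the other adult types. COX1, which holds the site where oxygen is reduced, gave 8.06% in adult and 8.74% in newborn fibroblast-like cells, and 16.4% in plasma cell-like and 16.3% in milk-secreting epithelium-like cells. All these RNAs but that of ND6 come from the same long transcript of a strand, and a kit that primes on poly(A) may not count them equally, so shares are compared between cells and not between genes.

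**Figure D4:**
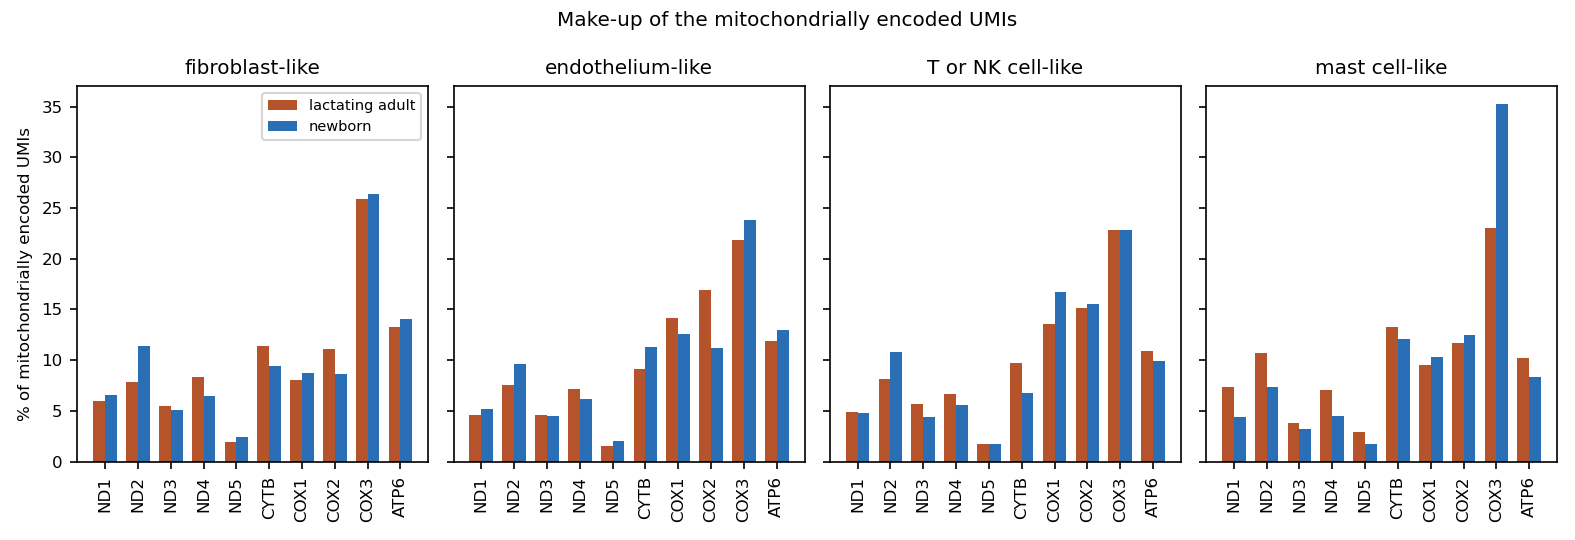
Share of each mitochondrial gene in the mitochondrially encoded UMIs (%) in adult and newborn cells of the 4 types found at both stages; the 3 genes under 0.5% are not drawn. COX3 reaches 35.3% in newborn mast cell-like cells and between 21.8% and 26.3% elsewhere.

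Among the complex I subunits encoded in the nucleus, NDUFS8 and NDUFA11 stood out between stages. NDUFS8, a core subunit that holds iron-sulphur clusters, had 98.8 CPM (60 UMIs) in adult and 30.6 CPM in newborn fibroblast-like cells, 3.23-fold (2.45 to 4.19). This was the largest ratio there among the nuclear complex I genes with enough UMIs. The core subunit NDUFS1, with too few UMIs to enter, differed more, with 31.3 CPM in adult and 4.27 CPM in newborn fibroblast-like cells. NDUFS8 was 2.20-fold in endothelium-like cells, 2.01-fold in mast cell-like cells (just under 2-fold with the prior count, and not counted) and 0.865 among T or NK cell-like cells. NDUFA11, an accessory membrane subunit, had 86.9 CPM in adult and 26.8 CPM (17 UMIs) in newborn endothelium-like cells, 3.25-fold (2.02 to 5.59). Its ratio was 2.63 in fibroblast-like, 2.95 in mast cell-like and 0.939 among T or NK cell-like cells. The same libraries enter all 4 ratios. Other accessory subunits past 2-fold in the adult were NDUFB7 (2.60), NDUFA7 (2.41), NDUFA2, NDUFA8 and NDUFB3 in fibroblast-like cells, beside the core subunits NDUFS7 (2.41) and NDUFV1 (2.08). Endothelium-like cells had NDUFB3 (2.51), NDUFS6 (2.38), NDUFB7 (2.15), NDUFV1 (2.04) and NDUFA7 (2.03) past it. Of the nuclear complex I subunits with enough UMIs, 9 of 34 were past 2-fold in fibroblast-like cells, under the background of 36.5%. The count was 7 of 35 in endothelium-like cells (background 9.08%) and 3 of 34 in mast cell-like cells (background 18.4%). With median scaling 1, 5 and 2 were past it.

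NDUFA5, an accessory subunit of complex I, differed in opposite directions in immune types. T or NK cell-like cells had 41.3 CPM in the adult and 84.1 CPM (33 UMIs) in the newborn, a ratio of 0.492 (0.347 to 0.720). Mast cell-like cells had 41.8 CPM (42 UMIs) in the adult and 17.5 CPM (16 UMIs) in the newborn, 2.38-fold (1.31 to 4.54). With 16 to 42 UMIs in 3 of these 4 sums, both ratios rest on few molecules, and the T or NK cell-like value was no longer past 2-fold with median scaling.

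Complex II, which is also an enzyme of the citric acid cycle, has 4 subunits, all nuclear. The flavoprotein SDHA had 147 CPM (89 UMIs) in adult and 54.3 CPM in newborn fibroblast-like cells, 2.70-fold (2.16 to 3.33). Its ratio was 2.04 in mast cell-like and 1.45 in endothelium-like cells, and 0.805 among T or NK cell-like cells with 19 newborn UMIs, too few to count. The iron-sulphur subunit SDHB had a ratio of 1.15 in fibroblast-like, 1.23 in endothelium-like, 1.32 in T or NK cell-like and 0.941 in mast cell-like cells, each inside 2-fold. The membrane anchor SDHC was 2.10-fold in fibroblast-like cells and SDHD 1.62-fold. Past 2-fold were thus 2 of 4 in fibroblast-like cells (background 36.5%) and 1 of 4 in mast cell-like cells (background 18.4%). With median scaling 0 were past it in either type. In T or NK cell-like cells SDHA had 39.0 CPM in the adult and 48.4 CPM in the newborn, and the adult level was the lowest of the adult types but for neutrophil-like and milk-secreting epithelium-like cells.

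For complex III few members were past 2-fold between stages. Of its 8 nuclear subunits, 7 of which had enough UMIs in T or NK cell-like cells, 0 were past 2-fold in fibroblast-like, T or NK cell-like and mast cell-like cells, and UQCR11, a small accessory subunit, was the 1 past it in endothelium-like cells, with 222 CPM in the adult and 107 CPM in the newborn (2.07-fold, 1.63 to 2.68). Over all genes, 36.5% were higher and 11.1% lower in fibroblast-like cells, and 9.08% and 9.13% in endothelium-like cells. The shares were 5.84% and 7.66% in T or NK cell-like and 18.4% and 11.9% in mast cell-like cells. With at most 8 members, the counts say little about the complex beside these shares. With median scaling UQCR11 was just inside 2-fold, at a log2 ratio of 0.98, and UQCRH was past it in fibroblast-like cells, at -1.37. The hinge protein UQCRH, the nuclear subunit of this complex with the most UMIs, had 203 CPM in adult and 325 CPM in newborn fibroblast-like cells, a ratio of 0.622 (0.517 to 0.743). It was 1.22 in endothelium-like, 0.844 in T or NK cell-like and 1.34 in mast cell-like cells.

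The alternative subunits of complex IV were where single genes differed most. COX4I2, the form of subunit IV known from lung and from hypoxia, had 28 UMIs in 15 of 183 adult fibroblast-like cells (46.1 CPM, 30.6 to 66.6) and 1 UMI in 10092 newborn fibroblast-like cells (0.0206 CPM). The ratio was 2237, with an interval of 370 to 91480. It was seen in 8.20% of adult fibroblast-like cells, at up to 4 UMIs in a cell, against 0.0920% of T or NK cell-like and 0.0419% of endothelium-like cells, whose median depths were 2389, 2740 and 3233 UMIs. Mural cells of vessels are known to use this form, and their list summed to 39.5 CPM in adult and 22.3 CPM in newborn fibroblast-like cells. In the adult 3 of its 6 genes, RGS5, MCAM and CSPG4, were at 0, whereas in the newborn all 6 were seen. That list was not used to name or exclude cells, and its part in the result was not tested. The common form COX4I1 had 556 CPM in adult and 723 CPM in newborn fibroblast-like cells (0.769, 0.689 to 0.856), and between 0.847 and 1.14 times the newborn level in the other 3 types.

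COX7A1, the form of subunit VIIa known from heart and skeletal muscle, was lower in adult T or NK cell-like and mast cell-like cells. Other immune types had too few newborn cells for a comparison. T or NK cell-like cells had 15.5 CPM in the adult and 68.8 CPM (27 UMIs) in the newborn, a ratio of 0.225 (0.151 to 0.348). Mast cell-like cells had 20.9 CPM (21 UMIs) in the adult and 53.7 CPM (49 UMIs) in the newborn, a ratio of 0.389 (0.222 to 0.661). Endothelium-like cells had a ratio of 0.667 and fibroblast-like cells 1.12. Fibroblast RNA was more abundant in the newborn sets: the fibroblast list had 34.2 CPM in adult and 1335 CPM in newborn T or NK cell-like cells, and 39.8 CPM in adult and 1885 CPM in newborn mast cell-like cells. Newborn fibroblast-like cells themselves had 30828 CPM of that list and 45.7 CPM of COX7A1, less than newborn T or NK cell-like or mast cell-like cells, and the part of fibroblast RNA in these ratios was not tested. The common form COX7A2 lay between 0.783 and 1.35 in the 4 stage ratios. COX7A2L, which links complexes III and IV, had 175 CPM in adult and 65.8 CPM in newborn mast cell-like cells, 2.66-fold (1.98 to 3.63).

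NDUFA4, now counted as a subunit of complex IV, was highest in T or NK cell-like cells at both stages, with 1101 CPM in the adult and 833 CPM in the newborn. The other adult types ranged from 174 CPM in milk-secreting epithelium-like to 952 CPM in plasma cell-like cells, with a median over the 10 types of 430.2 CPM. Between stages NDUFA4 was 2.24-fold (1.97 to 2.53) in fibroblast-like, 2.26-fold (1.89 to 2.71) in mast cell-like, 1.79-fold in endothelium-like and 1.32-fold among T or NK cell-like cells, higher in the adult each time. Its relative NDUFA4L2, which is induced by hypoxia, had 15 UMIs over all gated cells of both libraries. Other tissue-bound forms were as scarce: COX6A2 of muscle had 0, COX8B 12, COX7B2 25 and COX6B2, known from testis, 50 UMIs. Of the 50, 22 were in adult luminal epithelium-like cells.

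Among the genes of ATP synthase, the ring subunit ATP5MC1 was near 3-fold higher in the adult in 2 types. It had 117 CPM (71 UMIs) in adult and 39.2 CPM in newborn fibroblast-like cells, 2.98-fold (2.32 to 3.78). Mast cell-like cells had 82.6 CPM (83 UMIs) in the adult and 27.4 CPM (25 UMIs) in the newborn, 3.01-fold (1.91 to 4.92). Endothelium-like cells had a ratio of 2.03 and T or NK cell-like cells 0.964. With median scaling its log2 ratio was 0.89 in fibroblast-like and 0.95 in endothelium-like cells, inside 2-fold. The other genes for the same ring protein had smaller ratios in the fibroblast-like, mast cell-like and endothelium-like comparisons. ATP5MC2 had ratios of 0.787, 0.627, 1.07 and 0.695 in fibroblast-like, mast cell-like, endothelium-like and T or NK cell-like cells, and ATP5MC3 had 1.47, 1.42, 1.59 and 1.00. Scaling by the median of all genes put ATP5MC3 below equality in fibroblast-like cells, with a log2 ratio of -0.13.

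ATP5IF1, the inhibitor that stops ATP synthase from running backwards, had its largest ratio in endothelium-like cells. It had 357 CPM in the adult and 134 CPM (85 UMIs) in the newborn, 2.67-fold (2.15 to 3.35). The ratio was 1.86 in both fibroblast-like and mast cell-like cells and 0.811 (0.656 to 1.01) among T or NK cell-like cells. ATP5PF, a stalk subunit, was 2.08-fold in endothelium-like cells. The 2 nuclear genes of the synthase with the most UMIs, ATP5F1E and ATP5MG, stayed within 0.629 to 1.37 in all 4 types. With median scaling ATP5MG was past 2-fold in fibroblast-like cells, lower in the adult. ATP5MD, a small membrane subunit, was lowest among the members in adult fibroblast-like cells relative to the newborn, at 0.561 (0.436 to 0.710).

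**Figure D5:**
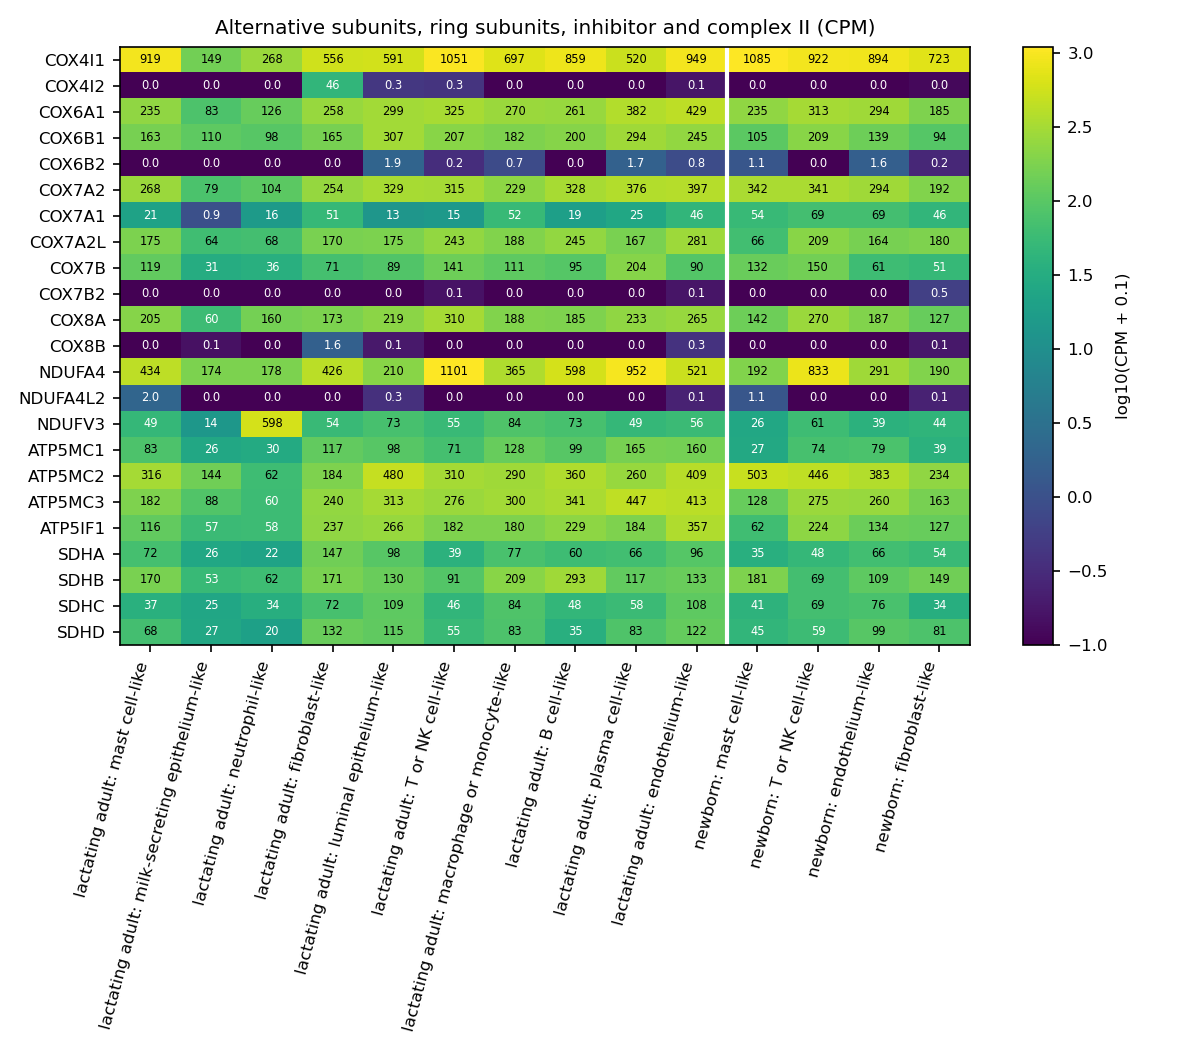
CPM of alternative complex IV subunits, NDUFV3, the ring subunits, ATP5IF1 and complex II in each cell type, adult types left of newborn types; colour is log10(CPM + 0.1) and rows are to be read along, not against each other. COX4I2 stands at 46.1 CPM in adult fibroblast-like cells, NDUFV3 at 598 CPM in adult neutrophil-like cells and COX7A1 at 0.879 CPM in milk-secreting epithelium-like cells.

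Within the adult, milk-secreting epithelium-like cells were set against luminal epithelium-like cells, which carry keratins and little milk protein RNA. The basal or myoepithelium list summed to 8.43 CPM in milk-secreting cells, with KRT14 and TP63 at 0, and to 1013 CPM in luminal cells, with all 7 genes seen, and its part in the comparison was not tested. The nuclear genes had 4096 CPM in 382 milk-secreting and 12515 CPM in 760 luminal cells, a ratio of 0.327 (0.324 to 0.330), and the mitochondrial genes 22000.0 CPM and 48621 CPM, a ratio of 0.452. These values turn with the scaling. The 7 milk protein genes took 765924 CPM in milk-secreting and 10443 CPM in luminal cells. Among all genes, 91.5% of 10838 were at least 2-fold lower and 1.62% higher, with a median log2 ratio of -2.37. The members read 85 lower and 0 higher of 90, which is close to that background. Per 1000000 UMIs outside milk protein and mitochondrial genes, nuclear genes stood at 19314 in milk-secreting and 13300.3 in luminal cells, a log2 ratio of 0.54, and mitochondrial genes had a log2 ratio of 1.01. On that scale 9 nuclear members were at least 2-fold higher and 2 lower, and with median scaling 19 were higher and 2 lower.

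What does not turn with scaling is the ratio of the genomes: mitochondrial per nuclear UMIs were 5.37 in milk-secreting and 3.89 in luminal cells, 1.38 times as many. Without the limit on mitochondrial UMIs the log2 ratio was 0.41 in place of 0.47. Luminal cells were shallower, with a median of 10407 UMIs against 39282. In cells of 4000 to 8000 UMIs the ratio was 9.92 in milk-secreting and 5.48 in luminal cells, and in cells of 8000 to 16000 UMIs 7.27 in milk-secreting and 3.84 in luminal cells. The member that kept closest to its luminal level was NDUFA4, with 174 CPM in milk-secreting and 210 CPM in luminal cells (0.828, 0.785 to 0.873), followed by the complex II assembly factor SDHAF4 (0.711) and the complex I assembly factor NDUFAF8 (0.599). The lowest were COX7A1, with 0.879 CPM in milk-secreting and 13.1 CPM in luminal cells (0.0670, 0.0380 to 0.111), and COX6B2, with 0 UMIs in milk-secreting and 22 UMIs in luminal cells, where a floor of 3 counts, taken as the limit that a count of 0 allows, is 0.155 CPM. ND2 was the mitochondrial gene furthest down, at 0.254, and COX1 the least, at 0.566.

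Neutrophil-like cells stood apart from macrophage or monocyte-like cells of the same library. Their nuclear genes had 4897 CPM against 11492 CPM, a ratio of 0.426 (0.408 to 0.445), and their mitochondrial genes 21567 CPM against 35464 CPM, a ratio of 0.608. Of 74 nuclear members, 1 was at least 2-fold higher and 60 were lower, against 21.6% and 47.2% of 3311 genes, with a median log2 ratio of -1.56 for the members and -0.88 for all genes. With median scaling the split was 2 higher and 23 lower, and the summed mitochondrial level moved to a log2 ratio of 0.16. Complex II and complex III were lowest, at 0.304 (0.234 to 0.391) and 0.309 (0.260 to 0.366) of the macrophage or monocyte-like level. Neutrophil-like cells were shallow, with a median of 876 UMIs against 6468, and among cells of at least 500 genes the nuclear log2 ratio was -0.87 in place of -1.23.

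The 1 member past 2-fold upwards was NDUFV3 (ENSBTAG00000021491), an accessory subunit of complex I at its NADH-binding end. It had 598 CPM (532 to 669; 299 UMIs in 187 of 507 cells) in neutrophil-like and 83.8 CPM (113 UMIs in 76 of 203 cells) in macrophage or monocyte-like cells, 7.13-fold (5.72 to 8.93). The other 8 adult types lay between 13.5 CPM in milk-secreting epithelium-like and 73.3 CPM in luminal epithelium-like cells. In the newborn, 28 neutrophil-like cells, too few for a comparison, had 297 CPM (153 to 519; 12 UMIs in 9 cells), against 44.3 CPM in fibroblast-like cells. ATP5PB, the stalk subunit b of ATP synthase, was the next highest at 1.37-fold (1.11 to 1.69), with 272 CPM in neutrophil-like and 198 CPM in macrophage or monocyte-like cells. The lowest were NDUFA11 (0.146), the assembly factor NDUFAF3 (0.145) and NDUFA13 (0.164).

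Plasma cell-like cells, which secrete antibody, were set against B cell-like cells. The nuclear genes had 14555 CPM in 48 plasma cell-like and 13480.1 CPM in 62 B cell-like cells (1.08, 1.04 to 1.12), and the mitochondrial genes 27303 CPM and 30521 CPM (0.895, 0.872 to 0.918). Median scaling put both sums higher in plasma cell-like cells, at log2 ratios of 0.59 and 0.32. Of 71 nuclear members, 8 were at least 2-fold higher and 2 lower, against 13.3% and 28.4% of 1931 genes, with a median log2 ratio of 0.13 for the members and -0.48 for all genes, and with median scaling 21 were higher and 1 lower. The highest were the complex I subunits NDUFB7, with 155 CPM in plasma cell-like and 50.9 CPM in B cell-like cells, and NDUFS7, with 126 CPM and 41.4 CPM, each 3.04-fold. SDHB was lower, with 117 CPM in plasma cell-like and 293 CPM in B cell-like cells (0.401, 0.289 to 0.553), and so was the complex II assembly factor SDHAF2 (0.178, 0.0737 to 0.390). SDHD, of the same complex, was 2.38-fold higher. Plasma cell-like cells were deeper, with a median of 11782 UMIs against 3038, and in the few cells of 1500 to 6000 UMIs the ratio of mitochondrial to nuclear UMIs turned to a log2 ratio of 0.45, in place of -0.27.

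The 12 assembly factors were scarce: 3 had enough UMIs in each of the fibroblast-like, endothelium-like and mast cell-like comparisons and 2 in the T or NK comparison, and none was past 2-fold in any of them. Other genes of mitochondrial energy supply were read from lists. Cytochrome c and the carriers had 0 genes past 2-fold on the adult side in any of the 4 types. In fibroblast-like cells 2 of 8 were 2-fold lower or more in the adult, or 5 with median scaling (background 11.1%), with a median log2 ratio of -0.57, and in endothelium-like cells 2 of 9 (background 9.13%), with a median of -0.39. In mast cell-like cells 1 of 9 was lower (background 11.9%, median -0.36), and of the T or NK comparison 0 of 7 (background 7.66%, median 0.26). The ADP/ATP carrier SLC25A5 had 34.6 CPM (21 UMIs) in adult and 88.1 CPM in newborn fibroblast-like cells (0.392), and 63.0 CPM in adult and 129 CPM in newborn endothelium-like cells (0.488). Cytochrome c itself, CYCS, had 227 CPM in adult and 505 CPM in newborn mast cell-like cells (0.449, 0.382 to 0.527). Of the 77 genes of the mitochondrial ribosome, 41 had enough UMIs in fibroblast-like cells, of which 5 were at least 2-fold higher and 6 lower, against 36.5% and 11.1% of all genes. In endothelium-like cells 5 were higher and 3 lower of 54, against 9.08% and 9.13%. Among T or NK cell-like cells 0 were higher and 2 lower of 19, against 5.84% and 7.66%, and in mast cell-like cells 7 were higher and 3 lower of 47, against 18.4% and 11.9%. Of the citric acid cycle, 1 was higher and 1 lower of 9 in endothelium-like cells (background 9.08% and 9.13%), 2 were higher and 1 lower of 7 in mast cell-like cells (background 18.4% and 11.9%), and 0 of 7 and 0 of 4 were past 2-fold in fibroblast-like and T or NK cell-like cells. Among the assembly factors of complex IV, the copper chaperone COX17 was the 1 of 6 past 2-fold in mast cell-like cells (2.92, background 18.4%), and 0 were in the other 3 types, or 1 in the T or NK comparison with median scaling. Genes of mitochondrial transcription and DNA upkeep and regulators of biogenesis rarely had enough UMIs, at most 4 of 15 and 2 of 9 in a stage comparison.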

How the data were processed

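Per the labels, 2 libraries of single cells were made with 10x Genomics 3' chemistry. The deposited matrices hold raw UMI counts per gene and barcode, and the submitters' processing notes name Cell Ranger 3.1.0 as the authors' software. Build, annotation and cell calling: not given in the sources used here. Coordinates and sequences are therefore left out.

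Barcodes with at least 300 genes and at most 20% mitochondrially encoded UMIs were kept. The automatic threshold of Scrublet (scanpy 1.11.5) marked 0 adult barcodes and 1 newborn barcode and so did not work. Barcodes were instead dropped from the top of its score, 0.8% for every 1000 barcodes. Cells were typed by marker lists: at least 2 markers, and a summed share of at least 5% (milk proteins 40%) of the median of the 50 cells richest in the list, for exactly 1 type. Gate thresholds were chosen with the data in view. Leiden clusters served as an alternative. Raw UMIs were summed per library and type and scaled to CPM. Ratios carry exact conditional binomial intervals and shares exact Clopper-Pearson intervals at 95%. UMIs are counts after amplification was collapsed, and intervals do not cover variation between animals. A gene entered a comparison with at least 20 UMIs in the group with the higher level, counted at the smaller of the 2 totals, which is stricter than planned because totals differed widely. Log2 ratios used a prior count of 0.5 in proportion to the totals. The count of genes past 2-fold was tried on simulated counts with planted changes. The simulation held counting error only, so it cannot speak to variation between cells, animals or libraries. Of the 16 marker lists, those of basal or myoepithelium, pericytes or smooth muscle, dendritic cells and erythroid cells neither named nor excluded a cell. The others named 10 types, with the endothelial lists joined.

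The members and lists were chosen with earlier results of these data known. Genes named are the mitochondrial genes, complex II, the subunits with alternative forms, ATP5IF1, the nuclear genes with the most UMIs, and the 8 largest ratios in each direction of a comparison, of which the text gives part. Genes of the other lists were chosen after their values were seen. Alternatives changed the mitochondrial limit (none, 10%), the minimum of genes (500), doublet removal, the gates, the depth window (1500 to 6000 UMIs), the scaling and the UMI minimum (50, none). Copies of these genes elsewhere in the genome were not checked.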

Additional observations from a re-analysis of the deposited data

Results flagged for a closer look

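Summed nuclear members of T or NK cell-like cells stood at 0.950 of the newborn level in the adult, while fibroblast-like (1.30), endothelium-like (1.43) and mast cell-like cells (1.13) were higher in the adult. The opposite direction drew attention to it. In cells of like depth the T or NK ratio was 1.005 at 2000 to 4000 UMIs and 1.07 at 4000 to 8000 UMIs. With median scaling its log2 ratio was 0.06, while that of fibroblast-like cells was -0.31. The difference between the types was not tested, since there is 1 library per stage.

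Mitochondrial per nuclear UMIs in endothelium-like cells stood at 0.843 of the newborn value in the adult, while the ratio was above 1 in the other 3 types. The difference was not tested. Lymphatic cells alone gave a log2 ratio of -0.35.

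NDUFA5 stood at 0.492 of the newborn level in adult T or NK cell-like cells and at 2.38 times the newborn level in adult mast cell-like cells, past 2-fold in opposite directions. The difference was not tested.

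NDUFV3 had 297 CPM in 28 newborn neutrophil-like cells, a group too small to enter a comparison. It was flagged because the level exceeded the limit that a count of 0 allows. That also held in other sets, such as newborn fibroblast-like cells with 2151 UMIs, so it does not set this value apart. The value rests on 12 UMIs in 9 cells.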

How the results depend on the processing

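No paired analysis was possible because each stage is 1 library, and for the same reason no replicate could be left out. Of the values recomputed, 281 kept their side of 2-fold or stayed within 1.5 times, and 34 counts moved. Among ratios past 2-fold, 3 lost that size and 4 reversed. All 4 that reversed did so when the scaling was changed, and the cause of the other changes was not tested. Ratios inside 2-fold that crossed equality count among the 281. Some did so with scaling, such as the nuclear sum in fibroblast-like cells (log2 ratio 0.38 to -0.31). Others turned without a change of scaling. The log2 ratio of mitochondrial per nuclear UMIs went from 0.03 to -0.175 in mast cell-like cells under the stricter mitochondrial limit. For plasma cell-like over B cell-like cells it went from -0.27 to 0.45 in the depth window. For milk-secreting over luminal epithelium-like cells, median scaling gave log2 ratios of 1.23 (mitochondrial) and 0.76 (nuclear) in place of -1.14 and -1.61, and a total without milk protein and mitochondrial genes gave 1.01 and 0.54. The count of nuclear members past 2-fold there, 0 higher and 85 lower, became 19 and 2 with median scaling, 9 and 2 with the other total, and 17 lower of 20 in cells of 1500 to 6000 UMIs.

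For neutrophil-like over macrophage or monocyte-like cells, the nuclear log2 ratio of -1.23 became -0.87 with at least 500 genes, -0.72 in the depth window and -0.35 with median scaling. The 60 lower members became 9 of 20, 3 of 7 and 23 of 74, and the 1 higher became 2 with median scaling.

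In fibroblast-like cells the 14 higher and 0 lower members became 2 and 5 with median scaling. There were 22 higher with the other total, 1 lower in the depth window and 4 lower with no UMI minimum. In endothelium-like cells the 11 higher became 6 with median scaling and 5 of 74 with lymphatic cells only, an alternative chosen after seeing the data, and 1 was lower with no UMI minimum. T or NK cell-like cells had 2 lower. This became 1 without doublet removal, in Leiden clusters, with median scaling and with the other total, and 0 in the depth window and at 50 UMIs, while 3 were higher with no minimum. Mast cell-like cells had 1 lower, which became 0 at 50 UMIs and 5 with no minimum.

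For plasma cell-like over B cell-like cells, the 8 higher and 2 lower became 4 higher without doublet removal, 4 and 1 with 1 more marker, 3 higher in Leiden clusters, 1 and 0 of 3 in the depth window, and 21 and 1 with median scaling.

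Depth limited which genes entered: with 183 adult fibroblast-like, 94 newborn endothelium-like and 77 newborn T or NK cell-like cells, 72 to 79 of the 96 nuclear members had enough UMIs.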

Other observations

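Levels of other genes that ran alongside these sums were looked up over 13 sets of cells, the types with at least 50 cells at either stage, among 6081 genes. These sets share 2 libraries and differ in depth, so the rank correlations are a description. The genes most like the summed mitochondrial level were SARAF (rho 0.94), a regulator of calcium entry, TRA2A (0.92), a splicing factor, KIT (0.86), RAB4A (0.85) and TMEM230 (0.85). KIT is a marker used to gate mast cell-like cells, which stand highest in the summed mitochondrial RNA. The genes most like the summed nuclear level were PSME2 (0.96), PSMA1 (0.96) and PSMA7 (0.95), parts or activators of the proteasome, DIP2B (0.95), and DNAJC15 (0.93), a protein of the inner mitochondrial membrane.

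UCP2, a carrier of the inner mitochondrial membrane, had 490 CPM (245 UMIs) in neutrophil-like and 183 CPM in macrophage or monocyte-like cells of the adult, 2.68-fold (2.24 to 3.22), while 5 of the 9 genes of its list were at least 2-fold lower in neutrophil-like cells, against 47.2% of all genes. It was lower in adult than in newborn endothelium-like cells, with 23.6 CPM in the adult and 126 CPM in the newborn (0.187, 0.146 to 0.242). ESRRA, a nuclear receptor of mitochondrial biogenesis, had 64.0 CPM (32 UMIs) in neutrophil-like and 23.0 CPM (31 UMIs) in macrophage or monocyte-like cells, 2.78-fold (1.64 to 4.71). These genes were picked from their lists after their values were seen.

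Adult T or NK cell-like cells held 7 clusters, of which 1 of 74 cells, with a median of 10002 UMIs, had 21412 CPM of nuclear oxidative phosphorylation genes, against 12580 CPM to 13730 CPM in the others. Its mitochondrial per nuclear UMIs were 1.92, the lowest of the 7.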
